A study of Mus musculus with 6 samples.

Results

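Serum response factor (SRF) and 9 genes of the actin cytoskeleton and its surroundings that are known as SRF targets were followed through a KCl time course in cultured mouse neurons. The 10 genes are Srf, Ccn1, Ccn2, Cnn1, Tagln, Acta2, Vcl, Flna, Actb and Actg1. They were taken by symbol, each matched to 1 Ensembl identifier, and all 10 had values among the 21553 genes with a value (22667 genes are listed). The set was chosen by known ties to SRF and actin, but also with earlier results of these data in view: the measured values behind the choice were the rise of Ccn1 at both KCl times and that of Cnn1 at 3 h, where its libraries differ. The changes of Ccn1 and of Cnn1 are therefore a description: no p-value is printed for them against untreated neurons, and where they are counted or drawn as passing a threshold, the choice of members fixed this. The counts of members that pass a test are likewise a description.

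The neurons came from the hippocampus of C57bl/6 mouse embryos at day 16.5 and had been 10 days in culture. They were left untreated, or were held in 55 mM KCl for 0.5 h or for 3 h, with 2 libraries in each of the 3 groups. Raised extracellular KCl depolarises neurons and opens voltage-gated calcium channels. The labels call the libraries biological duplicates without saying what was duplicated, so a p-value measures the spread between these samples, which may be technical. RNA was extracted with TriReagent and made into libraries with a kit that does not mark the strand.

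SRF is a transcription factor that binds a short A/T-rich element, the CArG box. It works with either of 2 kinds of partner: the ternary complex factors of the Elk family, which respond to MAP kinase signalling and are tied to the immediate early genes, and the myocardin-related factors Mrtfa and Mrtfb, which are held back by monomeric actin and freed when actin is driven into filaments. In neurons SRF is known for its part in activity-dependent gene expression and in neurite and axon growth.

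Srf itself, Ccn1, Ccn2, Cnn1, Tagln and Vcl were all higher after 3 h of KCl than in untreated neurons in both libraries. Their fitted changes ran from 1.05 (Srf) to 5.92 (Cnn1) on the log2 scale. Ccn1 was already high at 0.5 h, where the other 5 had log2 changes between -0.38 and 0.42. The abundant cytoplasmic actins Actb and Actg1 had changes of 0.18 or less at either time, and the smooth muscle actin Acta2 differed more between the libraries of a group than between groups.

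**Figure D1:**
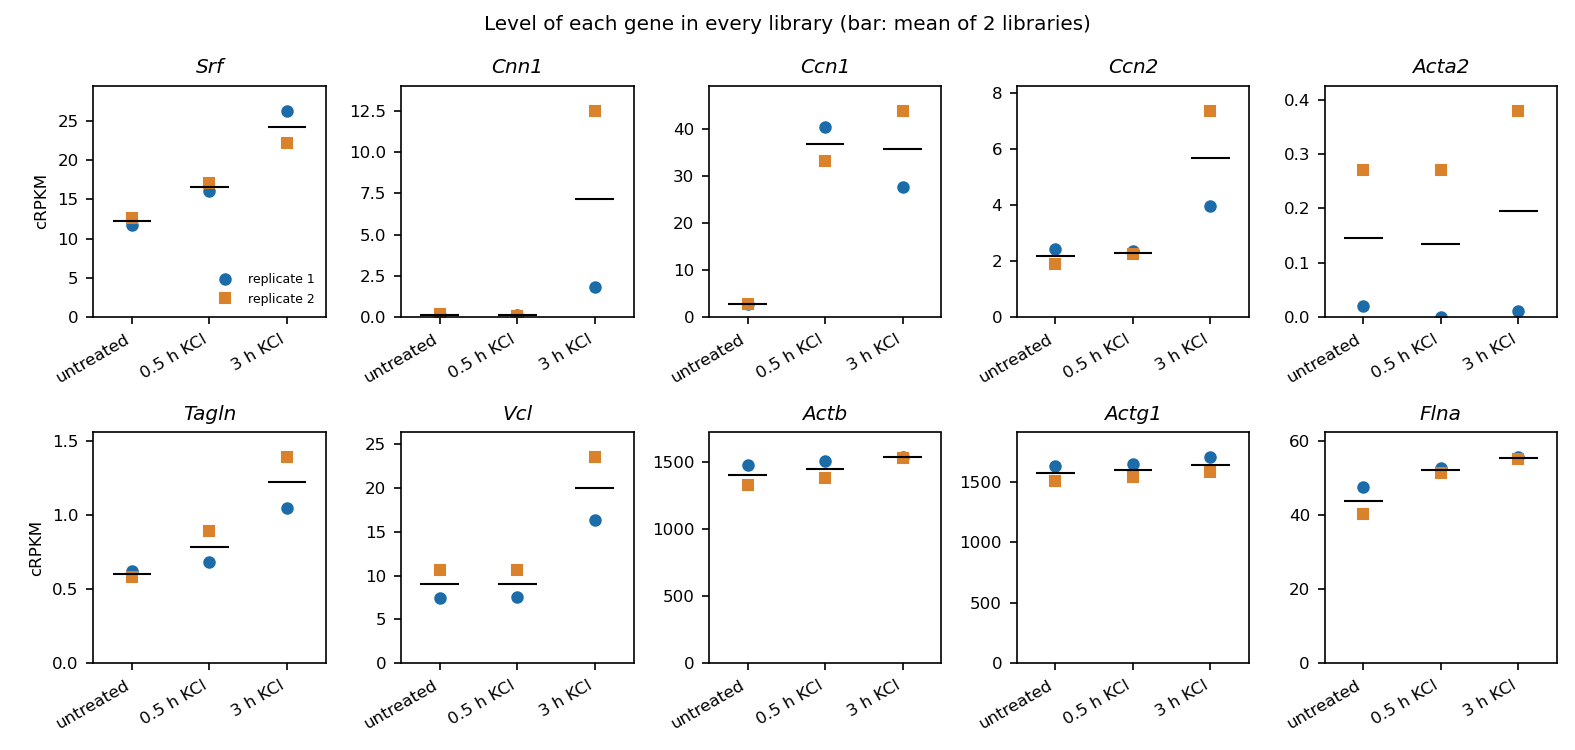
Level of each of the 10 genes in cRPKM (linear axes that start at 0) in the 2 libraries of the untreated, 0.5 h and 3 h groups, with the mean as a bar. Ccn1 stands near its 3 h level by 0.5 h, Srf is intermediate at 0.5 h, Vcl and Ccn2 are higher only in the 3 h libraries, and Cnn1 is 1.82 in one 3 h library and 12.5 in the other.

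Levels are given in cRPKM as the authors computed it. The sources used here do not define it, and it was read as an RPKM, that is, reads per kilobase of gene scaled to library depth; levels of different genes are compared per length on that reading. In the untreated cultures the 10 genes covered a wide range. Actg1 (1569 cRPKM) and Actb (1407 cRPKM) stood at ranks 19 and 21 of the 21553 genes by mean level. The actin crosslinker Flna had 43.8 cRPKM (rank 1818), Srf 12.2 (rank 6216) and Vcl 9.06 (rank 7398). Ccn1, at 2.69 cRPKM, Ccn2, at 2.17, and Tagln, at 0.600, came below them. Acta2 (0.145 cRPKM) and Cnn1 (0.120 cRPKM) were last, at ranks 14506 and 14708. Acta2 and Cnn1 were the only neighbours in this order whose untreated libraries overlapped.

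Srf (ENSMUSG00000015605, chromosome 17) encodes the factor and is itself known as an SRF target. It had 11.7 and 12.7 cRPKM in untreated neurons, 16.1 and 17.1 at 0.5 h and 26.3 and 22.2 at 3 h. Each group lay above the one before it, with no overlap. The means were 12.2 ± 0.66 cRPKM untreated, 16.6 ± 0.65 after 0.5 h and 24.3 ± 2.93 after 3 h (SD, n = 2 each). That is a log2 change of 0.42 ± 0.13 at 0.5 h and 1.05 ± 0.13 at 3 h (± SE of the fit). Within a replicate number the 0.5 h level was 1.38 and 1.35 times the untreated one, and the 3 h level 2.25 and 1.75 times. In RNA from a whole culture, a change in the number of cells of a type and a change in RNA per cell cannot be told apart, and this holds for every gene below.

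The sequence before the Srf start is shown with those of Vcl and Actg1. These are the 3 members whose promoter window held a CArG box in the exact form searched. The windows run from 250 bases before to 50 bases after the gene start in RefSeq's mouse build GRCm38.p6, and the 250 bases before the start are printed 5' to 3' on the strand of the gene, with CArG boxes in capitals. Srf lies at chr17:46556163-46556412 on the minus strand, Vcl at chr14:20929148-20929397 on the plus strand and Actg1 at chr11:120348496-120348745 on the minus strand.
Srf: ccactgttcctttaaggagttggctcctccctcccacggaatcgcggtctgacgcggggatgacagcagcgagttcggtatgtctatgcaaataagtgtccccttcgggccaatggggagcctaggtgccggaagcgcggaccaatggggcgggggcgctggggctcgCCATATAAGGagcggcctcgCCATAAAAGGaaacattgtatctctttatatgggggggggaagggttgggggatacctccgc
Vcl: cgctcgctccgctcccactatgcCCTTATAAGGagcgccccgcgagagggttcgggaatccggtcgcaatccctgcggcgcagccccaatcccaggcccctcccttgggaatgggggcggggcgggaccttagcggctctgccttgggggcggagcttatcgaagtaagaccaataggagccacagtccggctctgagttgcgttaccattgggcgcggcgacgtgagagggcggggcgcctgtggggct
Actg1: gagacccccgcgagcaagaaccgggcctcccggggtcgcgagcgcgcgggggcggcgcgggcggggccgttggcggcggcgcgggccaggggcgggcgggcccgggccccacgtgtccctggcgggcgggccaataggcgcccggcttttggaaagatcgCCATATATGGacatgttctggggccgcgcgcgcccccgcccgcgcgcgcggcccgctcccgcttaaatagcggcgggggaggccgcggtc
The Srf window held a pair of boxes, at -82 to -73 and at -62 to -53 counted from the start, and an ETS core (CCGGAA, the core bound by Elk factors) at -122 to -117. This ETS core is common, being held by 14.9% of all promoter windows. The Vcl window had its box at -227 to -218 and the Actg1 window at -90 to -81.

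A CArG box was read as CC, then 6 bases that are A or T, then GG, and every motif was searched on both strands. Near matches with another base in the middle were not counted, such as ccctatatgg and ccttgtttgg in the Acta2 window. A window without a box here can therefore still hold a CArG-like sequence. Of the 32851 promoter windows in the RefSeq table, 1.63% held a CArG box. Windows were found for 7 of the 10 members, and Ccn2, Tagln and Actb had none in the table. The 3 members with a box include a gene that was higher at both KCl times, one that was higher at 3 h and one, Actg1, whose 3 h mean was 4.53% above the untreated mean. The windows of Cnn1 and Ccn1, which had the largest changes, held no CArG box. Those of Ccn1, Acta2, Vcl and Flna held the TEAD core GGAATG, which 14.7% of all windows hold. The calcium- and cAMP-linked CRE (TGACGTCA) and the AP-1 motif (TGANTCA) were in 0 of the 7 windows, against 1.79% and 7.81% of all windows. The motifs were chosen after the expression values were seen, and a match describes the letters in the window and nothing further.

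**Figure D2:**
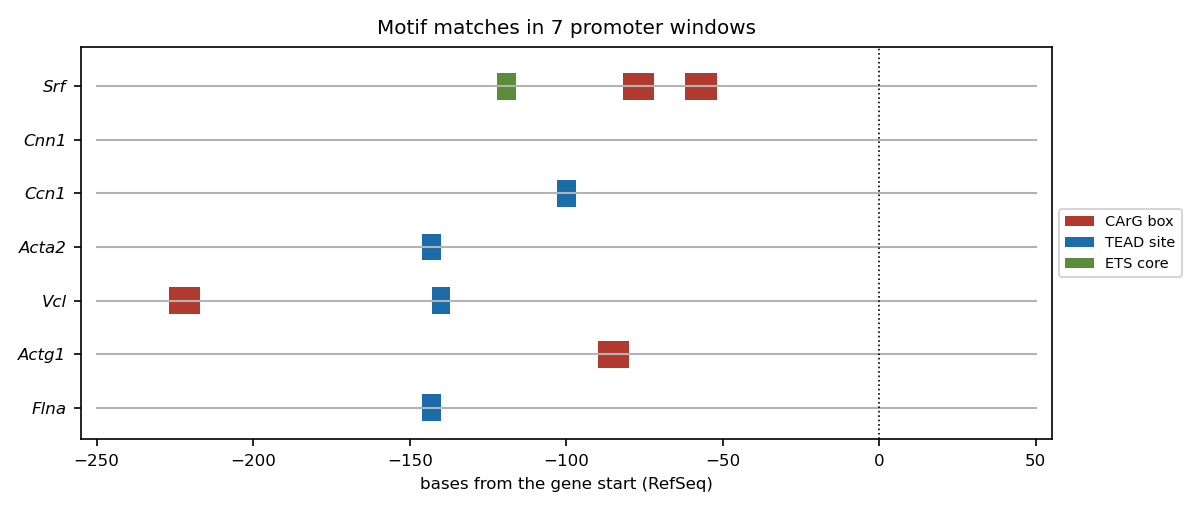
Position of CArG boxes, TEAD cores and ETS cores in the 7 promoter windows found, in bases from the gene start in RefSeq. CArG boxes in the exact form searched lie in the Srf, Vcl and Actg1 windows, and the Cnn1 window holds none of the motifs searched.

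Ccn1 (ENSMUSG00000028195, chromosome 3; also known as Cyr61) encodes a secreted matricellular protein that binds integrins, and is known both as an immediate early gene and as a target of the YAP and TEAD factors. It had 2.75 and 2.62 cRPKM in untreated neurons, 40.5 and 33.3 at 0.5 h and 27.7 and 44.0 at 3 h. Both KCl groups lay far above the untreated libraries and overlapped each other. The level within a replicate number was 14.7 and 12.7 times the untreated one at 0.5 h, and 10.1 and 16.8 times at 3 h. From 0.5 h to 3 h, replicate 1 had 0.683 and replicate 2 had 1.32 times its earlier level, so the libraries moved in opposite directions between the KCl times. The log2 changes against untreated neurons were 3.76 ± 0.24 at 0.5 h and 3.78 ± 0.24 at 3 h.

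Ccn2 (ENSMUSG00000019997, chromosome 10; also known as Ctgf) encodes the closest relative of Ccn1 and a target of the same factors. It had 2.44 and 1.89 cRPKM in untreated neurons, 2.34 and 2.24 at 0.5 h and 3.96 and 7.38 at 3 h. The 0.5 h libraries fell between the untreated ones, and both 3 h libraries lay above all others. Its log2 changes were 0.06 ± 0.29 at 0.5 h and 1.43 ± 0.30 at 3 h, with 1.62 and 3.90 times the untreated level in the 3 h libraries. In a later mouse annotation (GENCODE M21) 8.60% of the 50-base stretches of its longest coding transcript also occur in the annotated gene Gm15270 on the opposite strand, whose reads this kit would not separate.

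Cnn1 (ENSMUSG00000001349, chromosome 9) encodes calponin 1, an actin-binding protein best known from smooth muscle. It was near the lower end of detection before 3 h, with 0.10 and 0.14 cRPKM in untreated neurons (32 and 44 counts) and 0.11 and 0.070 at 0.5 h (36 and 19 counts). At 3 h it had 1.82 cRPKM in replicate 1 (590 counts) and 12.5 in replicate 2 (2873 counts). Both 3 h libraries lay above all 4 others, and they differed from each other 6.88-fold. The 3 h level was 18.2 times the untreated one within replicate 1 and 89.5 times within replicate 2. The log2 change was 5.92 ± 1.01 over untreated neurons. It was 4.03 without 3 h replicate 2 and 6.72 without 3 h replicate 1.

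The gap between the 3 h libraries of Cnn1, 2.70 on the log2 scale of counts scaled to library size, was among the values that prompted the choice of the gene. In the other groups Cnn1 differed by 0.52 (untreated) and by -0.72 (0.5 h), so replicate 2 was not the higher library throughout. Ccn2 and Ccn1 were also higher in replicate 2 at 3 h, by 0.81 and 0.58, while Srf was lower there by 0.33 on that scale. The astrocyte marker Gfap was higher in replicate 2 in every group, with 22.4 and 307 cRPKM untreated, 22.8 and 335 at 0.5 h and 24.6 and 475 at 3 h. Its gap was the widest of the astrocyte markers read here, and the others differed far less. Every astrocyte marker was, however, higher in replicate 2 in every group. Aldoc had 216 and 322 cRPKM untreated, 215 and 362 at 0.5 h and 211 and 467 at 3 h. Slc1a2 had 187 and 268 untreated, 183 and 267 at 0.5 h and 165 and 300 at 3 h. Slc1a3 had 390 and 398 cRPKM untreated, 394 and 444 at 0.5 h and 442 and 635 at 3 h. Gja1 had 129 and 135 untreated, 133 and 150 at 0.5 h and 138 and 183 at 3 h. The part of these cells in the Cnn1 values was not tested.

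**Figure D3:**
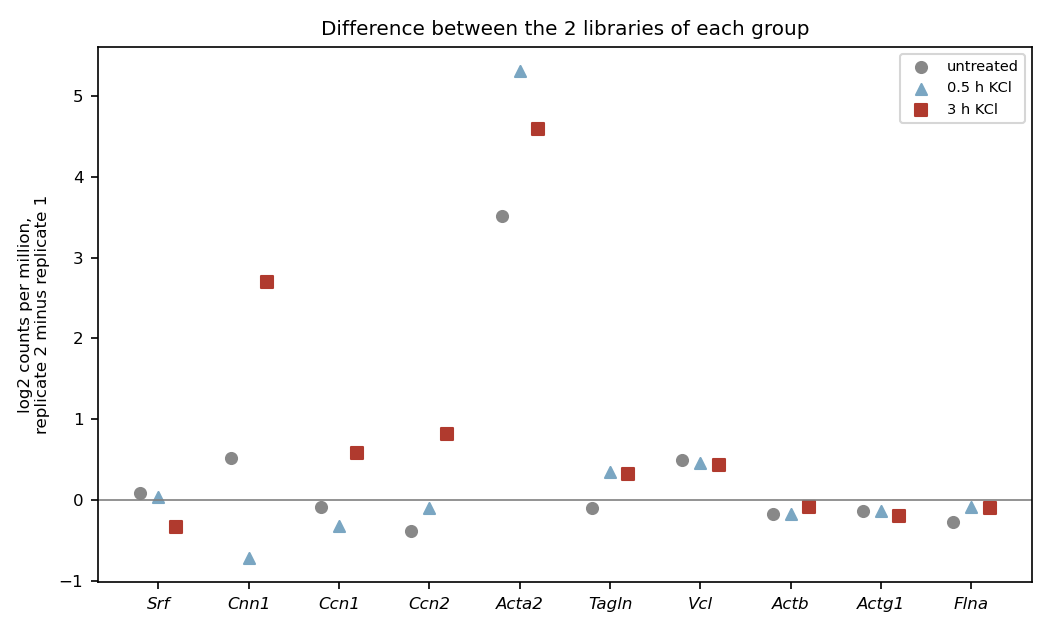
Difference between the 2 libraries of a group for each of the 10 genes, as log2 of scaled counts in replicate 2 minus replicate 1. Acta2 is higher in replicate 2 by 3.51 to 5.31 in every group, Cnn1 by 2.70 at 3 h, and Vcl by 0.43 to 0.49 throughout.

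Tagln (ENSMUSG00000032085, chromosome 9) encodes transgelin, or SM22 alpha, an actin-bundling relative of calponin and a classic SRF target of smooth muscle. It had 0.620 and 0.580 cRPKM in untreated neurons, 0.680 and 0.890 at 0.5 h and 1.05 and 1.39 at 3 h. Each group lay above the one before it. The counts were low, at 118 to 223 per library. The log2 change was 0.36 ± 0.25 at 0.5 h and 1.07 ± 0.25 at 3 h. In the later annotation 48.3% of the 50-base stretches of its longest coding transcript occur in other genes, among them Pcsk7 on the opposite strand. Pcsk7 had 8.34 and 9.74 cRPKM at 3 h, against 7.66 and 7.19 in untreated neurons, so the Tagln value is uncertain to the extent that the authors' counting shared reads between them.

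Acta2 (ENSMUSG00000035783, chromosome 19) encodes the smooth muscle actin that marks contractile cells. Its counts were 5 and 60 in untreated neurons, 1 and 53 at 0.5 h and 3 and 63 at 3 h, always with replicate 2 the higher. The groups overlapped fully, and the gap within a group was larger than that of 99.8% of genes or more. The log2 changes were -0.11 ± 1.85 at 0.5 h and 0.43 ± 1.84 at 3 h. At these levels, 0.380 cRPKM or less, no difference between the groups was detectable.

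Of the 10 fibroblast markers, 8 were higher in replicate 2 in every group, as Acta2 was, and Dcn and Fbln1 were higher in replicate 1 in every group. Col1a1 had 0.140 and 1.87 cRPKM in untreated neurons, 0.130 and 1.63 at 0.5 h and 0.210 and 1.91 at 3 h. Dcn, the highest of the list, had 40.9 and 23.4 cRPKM untreated, 41.3 and 24.5 at 0.5 h and 42.1 and 20.1 at 3 h. Of the 10, 4 or 5 were under 0.5 cRPKM in each replicate 1 library and 0 in each replicate 2 library, while their summed level was 63.0 and 66.3 cRPKM untreated, 62.4 and 71.5 at 0.5 h and 64.3 and 72.5 at 3 h. By edgeR's adjusted p, and by that of DESeq2, 0 of them were called at 3 h, and 0 had an unadjusted p under 0.05. With the replicate block Col3a1 and Col6a1 were called higher (edgeR adjusted p = 0.0425 and 0.0433). Of all genes, edgeR called 8.71% higher and 6.84% lower at 3 h, and 18.6% each way with the block. None of the 10 was at 0. The smooth muscle and pericyte markers summed to 15.02 and 15.7 cRPKM untreated, 15.4 and 16.3 at 0.5 h and 14.5 and 20.9 at 3 h. The defining smooth muscle myosin Myh11 stayed between 0.160 and 0.290 cRPKM, and Kcnj8 was listed at 0 in every replicate 2 library and Des in that of 3 h. Of these 11 markers, the muscle-type Z-disc protein gene Synpo2 rose at 3 h (2.31 ± 0.14, adjusted p = 0.00353) and the pericyte receptor gene Pdgfrb fell by 1.05 ± 0.16 (adjusted p = 0.0165) in edgeR's quasi-likelihood test with Benjamini-Hochberg adjustment. Without either untreated library Pdgfrb was no longer called, and with the replicate block Smtn was called higher too (adjusted p = 0.0147). The part of such cells in the Acta2, Tagln and Cnn1 values was not tested.

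Vcl (ENSMUSG00000021823, chromosome 14) encodes vinculin, which ties integrin and cadherin adhesions to actin filaments. It had 7.46 and 10.7 cRPKM in untreated neurons, 7.52 and 10.7 at 0.5 h and 16.4 and 23.5 at 3 h. The 0.5 h libraries repeated the untreated ones, and the 3 h libraries lay above all 4. Replicate 2 was higher than replicate 1 by 0.43 to 0.49 on the log2 scale in every group. Within a replicate number the 0.5 h level was therefore 1.01 and 1.00 times the untreated one, and the 3 h level 2.20 and 2.21 times. The log2 change at 3 h was 1.19 ± 0.25, and its SE was 0.0645 when the replicate number was a term of the fit. In the later annotation 39.2% of the 50-base stretches of its longest transcript also occur in another gene, mainly Ap3m1 on the opposite strand. Ap3m1 had 16.7 and 19.5 cRPKM at 3 h, against 19.3 in each untreated library, a log2 change of -0.04.

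Flna (ENSMUSG00000031328, chromosome X) encodes filamin A, which crosslinks actin filaments and holds them to membrane receptors. It had 47.5 and 40.1 cRPKM in untreated neurons, 52.7 and 51.2 at 0.5 h and 55.5 and 55.2 at 3 h. Each group lay above the one before it, by a small step. The log2 change was 0.22 ± 0.13 at 0.5 h and 0.39 ± 0.13 at 3 h, and the means were 18.6% and 26.3% above the untreated mean. None of its transcript's 50-base stretches occurred in another annotated gene.

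Actb (ENSMUSG00000029580, chromosome 5) and Actg1 (ENSMUSG00000062825, chromosome 11) encode the cytoplasmic beta and gamma actins of all cells. Actb had 1481 and 1333 cRPKM in untreated neurons, 1512 and 1385 at 0.5 h and 1537 and 1534 at 3 h. Actg1 had 1633 and 1506 in untreated neurons, 1648 and 1541 at 0.5 h and 1702 and 1579 at 3 h. For Actg1 the groups overlapped at every time, and for Actb the 3 h libraries lay just above the others. The log2 changes at 3 h were 0.18 ± 0.13 for Actb and 0.12 ± 0.15 for Actg1, and at 0.5 h both were 0.02 or less. Actb made up 47.5% and 46.9% of the cRPKM of 6 actin genes in untreated neurons, 47.8% and 47.3% at 0.5 h and 47.4% and 49.3% at 3 h. The skeletal muscle actin Acta1 stayed between 0.980 and 1.57 cRPKM. Both cytoplasmic actins share sequence with other annotated genes, 18 for Actb (most with Lrrc58) and 22 for Actg1 (most with Gm12715). Of the 50-base stretches, 14.2% of the Actb transcript and 56.7% of the Actg1 transcript occur in another annotated gene. The levels of both are uncertain to that extent.

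**Figure D4:**
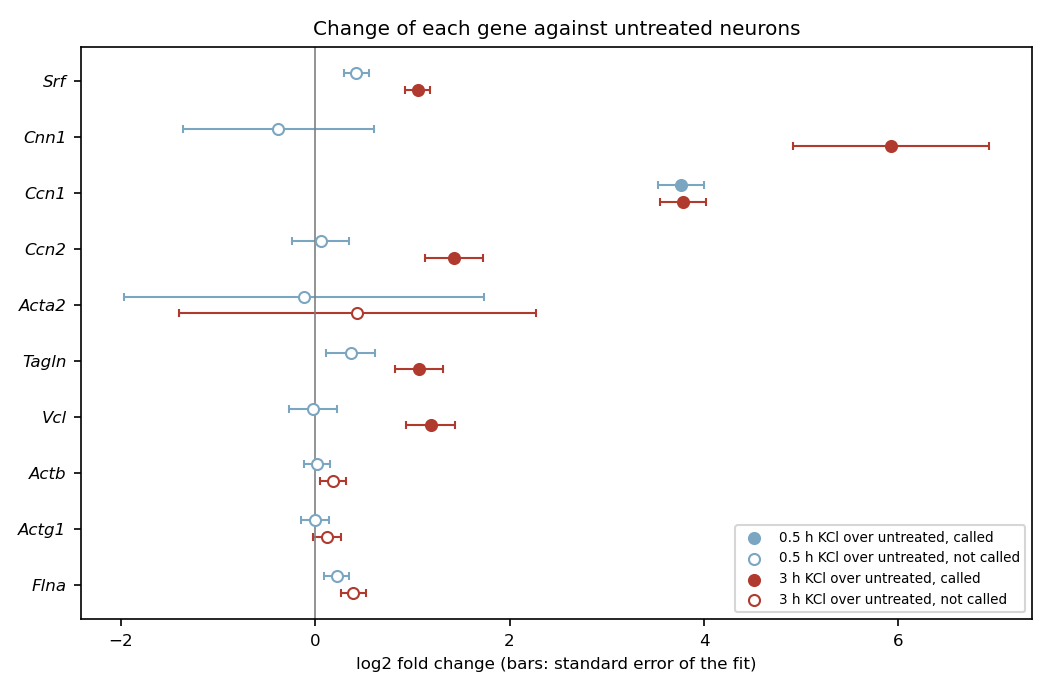
Fitted log2 fold change of the 10 genes at 0.5 h and at 3 h of KCl over untreated neurons, with the standard error of the fit as bars; filled points have an edgeR adjusted p under 0.05. Ccn1 has nearly the same change at both times, Srf, Ccn2, Cnn1, Tagln and Vcl have filled points at 3 h only, and the bars of Acta2 reach across 0 at both times.

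The comparison of 0.5 h KCl with untreated neurons asks what depolarisation had changed within minutes. A gene was called where edgeR's quasi-likelihood test gave a Benjamini-Hochberg adjusted p under 0.05 over all 15895 genes tested. At 0.5 h 1 of the 10 members, Ccn1, was called higher and 0 lower, where 0.0377% of all genes were called higher; the choice of Ccn1 fixed this count, and nothing is read from it. Srf had an unadjusted p of 0.0172 and an adjusted p of 1.00 in that test. Both 0.5 h libraries lay above both untreated ones for 4 members (Srf, Ccn1, Tagln and Flna), as for 14.8% of all genes, and for 0 members below, as for 6.38% of all genes. The median log2 change was 0.04 over the members and 0.00 over all genes. Without either untreated library the call of Ccn1 was lost, and the call was kept without any of the other 4 libraries. With the replicate block Ccn1 was again the 1 member called, where 0.0818% of all genes were called higher. A single untreated library is, in the fits that leave one out, assumed to vary like the other groups.

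At 3 h, which asks what longer activity had changed, 6 of the 10 members were called higher and 0 lower, where 8.71% of all genes were called higher and 6.84% lower. Besides Ccn1 and Cnn1 these were Srf (adjusted p = 0.0103), Ccn2 (0.0334), Vcl (0.0338) and Tagln (0.0425) in edgeR's test. Flna had an adjusted p of 0.0944, Actb 0.390, Actg1 0.601 and Acta2 0.887. With the replicate number as a block, Flna also passed (adjusted p = 0.0225), as it did in DESeq2 (0.0278), where 18.6% and 14.3% of all genes were called higher. Both 3 h libraries lay above both untreated ones for 8 members, as for 24.1% of all genes, Acta2 and Actg1 being the other two, and for 0 members below, as for 35.9% of all genes. The median log2 change was 1.06 over the members, which the choice of members can set, and -0.02 over all genes.

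Leaving out single libraries showed how far these calls rest on 2 libraries a group. Without untreated replicate 1, or without untreated replicate 2, Srf, Ccn2, Tagln and Vcl lost their calls. Cnn1 lost its call there too and Ccn1 kept it, but both were chosen for these values, so nothing is read from this. Without either 0.5 h library, Ccn2 and Tagln lost their calls, since the 0.5 h libraries enter the estimate of spread. Without 3 h replicate 2, Ccn2, Tagln and Vcl lost theirs, and without 3 h replicate 1 none did. Over these fits the log2 change ran from 0.88 to 1.23 for Srf and from 0.98 to 1.78 for Ccn2. It ran from 0.92 to 1.22 for Tagln and from 0.96 to 1.45 for Vcl. The log2 change of each of the 6 stayed above 0 in all of these fits.

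The comparison of 3 h with 0.5 h KCl tests whether the KCl effect differed between the times, since both effects use the same untreated libraries. Cnn1 (log2 difference 6.30 ± 1.03), Ccn2 (1.37 ± 0.30), Vcl (1.21 ± 0.25) and Srf (0.63 ± 0.13) were higher at 3 h, so 4 of the 10 members were called, against 6.39% of all genes called higher and 4.87% lower. Cnn1 was chosen for its 3 h values, which this comparison also uses, so its difference is a description. For the other 3 the adjusted p-values in edgeR's test were 0.0437 for Ccn2, 0.0391 for Vcl and 0.0376 for Srf. Ccn1 differed by 0.02 ± 0.21 between the times. It was chosen for its values at both times, so this too is a description. Tagln, at 0.71 ± 0.25, had an adjusted p of 0.122, which was 0.0349 with the replicate block, where 15.6% of all genes were called higher. Both 3 h libraries lay above both 0.5 h ones for 7 members, as for 21% of all genes, and below them for 0, as for 35.4%. Without either 0.5 h library all 4 calls were lost. Without either untreated library only Cnn1 stayed called, which its choice can set. Without 3 h replicate 2 Ccn2 and Vcl lost their calls.

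Genes around SRF were then described by lists, which like the members were chosen with earlier results known. The partners of SRF had no edgeR call at 3 h among 5 tested of 6, where 8.71% of all genes were called higher and 6.84% lower. At an unadjusted p under 0.05, 1 was higher and 1 lower. DESeq2 called 1, Elk4, higher, as it did 14.3% of all genes. Elk4 had a log2 change of 0.67 ± 0.18 (edgeR adjusted p = 0.0610) and Elk3 of 0.47 ± 0.43 (0.479). The actin-sensing Mrtfa had 8.16 and 7.69 cRPKM at 3 h, against 9.76 and 9.94 in untreated neurons, and Mrtfb 14.9 and 11.5 against 16.4 and 18.5. Their log2 changes were -0.26 ± 0.09 (edgeR adjusted p = 0.117) and -0.34 ± 0.16 (0.206). With the replicate block Elk3 and Elk4 were called higher and Mrtfa lower, with adjusted p-values of 0.0120, 0.00482 and 0.0468 in edgeR. Under that block 18.6% of all genes were called each way. Myocd, the muscle-restricted partner, did not pass the filter on low counts.

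The rapid SRF targets, immediate early genes such as Fos and the Egr family, had the largest changes. At 0.5 h 3 of 11 were called higher (Fos, Nr4a1 and Arc), with a list median of 2.92, and at 3 h 10 of 11, with a median of 2.71. Of all genes 0.0377% were called higher at 0.5 h and 8.71% at 3 h. Fos, the founding SRF target, averaged 8.06 ± 0.11 cRPKM untreated, 230 ± 9.90 after 0.5 h and 308 ± 51.5 after 3 h (SD, n = 2 each). The change of Fos at 3 h was 5.32 ± 0.19, that of the related Fosb 6.59 ± 0.48, that of the nuclear receptor gene Nr4a1 4.35 ± 0.16 and that of Arc, a synaptic effector gene, 2.71 ± 0.22. Egr1 had 0.79 ± 0.37 at 3 h (edgeR adjusted p = 0.193, and 0.0253 with the replicate block, under which all 11 were called). At 0.5 h the block added Ier2 to the 3 genes called (edgeR adjusted p = 0.0300). The 3 h count was 6 without untreated replicate 1 and 5 without untreated replicate 2. The 0.5 h count was 9 in DESeq2, where 0.22% of all genes were called higher, and 5 with no filter on low counts. It was lower without either untreated library, without either 3 h library and without 0.5 h replicate 2.

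Other cytoskeletal SRF targets had no call at 0.5 h. In edgeR's test 0 of 31 were called then, where 0.0377% of all genes were called higher, 0 had an unadjusted p under 0.05, DESeq2 also called 0, and the median change was 0.02. At 3 h 7 of 31 rose and 0 fell, with a median of 0.43, where 8.71% of all genes were called higher and 6.84% lower. Tpm4, a tropomyosin of non-muscle filaments, had 43.1 and 54.9 cRPKM at 3 h, against 23.5 and 18.2 in untreated neurons (log2 change 1.28 ± 0.18). Tagln2, the broadly expressed relative of Tagln, had 5.04 and 5.99 cRPKM, against 2.28 and 2.70 (1.20 ± 0.19). Talin, which binds vinculin and is encoded by Tln1, had a change of 0.88 ± 0.11, and the actin-linked Pdlim5 of 0.80 ± 0.11. Itgb1, Actn1 and Wdr1 made up the 7. The count was 16 higher and 2 lower with the replicate block (18.6% of all genes each way), and 12 in DESeq2, where 14.3% of all genes were called higher. No call was left without either untreated library. Of the 30 members of this list with a RefSeq promoter window, 8 held a CArG box.

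Since Ccn1 and Ccn2 are also targets of YAP and TEAD, other genes of that kind were read beside them. At 3 h 3 of 19 tested rose and 1 fell, where 8.71% of all genes were called higher and 6.84% lower, and the median change was 0.09. Gadd45b, a stress-response gene, rose by 3.54 ± 0.26, the LIM protein gene Ajuba by 1.94 ± 0.33 and the YAP kinase gene Lats2 by 1.25 ± 0.10, while Arhgef17 fell by 0.59 ± 0.12. The counts were 6 higher and 4 lower with the replicate block (18.6% of all genes each way), and 1 higher and 0 lower without either untreated library. Of the other 4 CCN genes none was called by edgeR or DESeq2 at either time, and 0 had an unadjusted p under 0.05 at 3 h. Ccn3 was called lower with the replicate block (adjusted p = 0.0396) and without 3 h replicate 1. Ccn3 had 41.1 and 33.0 cRPKM at 3 h, against 51.0 and 48.1 in untreated neurons, and Ccn4, Ccn5 and Ccn6 were at 0.320 cRPKM or less in every library.

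Regulators of actin assembly (the Arp2/3 complex, capping proteins, cofilin and the like) had a median change of 0.01 at 3 h, and 1 of 34, the filament-end capper Tmod3, rose (0.65 ± 0.09, edgeR adjusted p = 0.0126), where 8.71% of all genes were called higher. The count was 7 higher and 2 lower with the replicate block (18.6% of all genes each way), and 6 higher in DESeq2 (14.3% of all genes). Without 3 h replicate 1 more were called, in both directions, and without either untreated library no call was left.

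**Figure D5:**
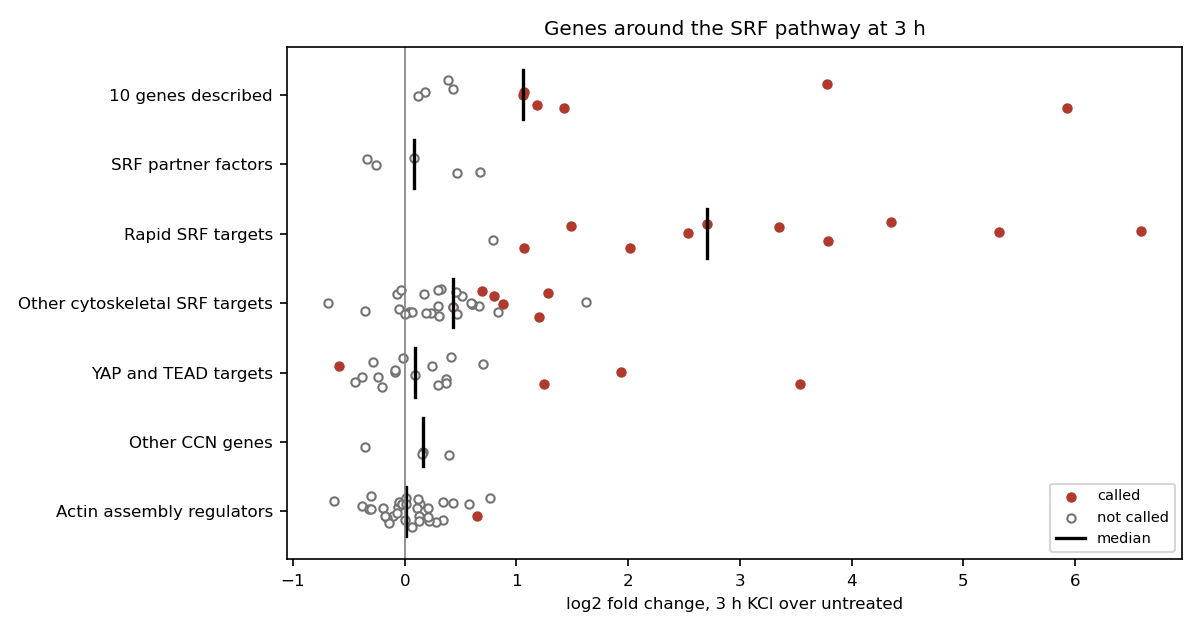
Log2 fold change at 3 h of KCl over untreated neurons for the 10 genes and for 6 lists of genes around SRF; each point is a gene, filled where its edgeR adjusted p is under 0.05, and the bar is the median. The rapid SRF targets have a median of 2.71, the other cytoskeletal targets 0.43 and the regulators of actin assembly 0.01.

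The cultures also held other cells, and their markers were not level across the groups. The 11 neuron markers summed to 1669 and 1877 cRPKM untreated, 1600 and 1726 at 0.5 h and 1290 and 1134 at 3 h. The 8 astrocyte markers summed to 1023 and 1521 untreated, 1027 and 1656 at 0.5 h and 1066 and 2192 at 3 h. The 8 progenitor markers summed to 1424 and 807 untreated, 1435 and 855 at 0.5 h and 1821 and 1507 at 3 h. Such sums weigh the most abundant markers, and single markers moved by unlike amounts. Tubb3 had 607 and 453 cRPKM untreated and 253 and 158 at 3 h, while Snap25 had 260 and 293, then 265 and 224. Nefl had 68.0 and 115 untreated and 128 and 109 at 3 h. Vim had 102 and 84.9 untreated and 307 and 460 at 3 h, while Sox2 had 42.2 and 42.0, then 44.8 and 41.1. By edgeR's adjusted p 0 neuron, 0 astrocyte and 1 progenitor marker (Vim, 2.09 ± 0.21) were called at 3 h. Of all genes 8.71% were called higher and 6.84% lower. With the replicate block 3 neuron markers were called lower, and 4 astrocyte and 6 progenitor markers higher, against 18.6% of all genes each way. Vim was no longer called without either untreated library. At an unadjusted p under 0.05, 1 neuron marker was lower and 2 astrocyte markers higher. DESeq2 called 1 of each, Tubb3 lower and Slc1a3 higher, where it called 14.3% of all genes higher and 11.7% lower. None of these 27 markers was at 0 in any library. Endothelial markers summed to 2.01 cRPKM or less and microglial markers to 1.42 or less in every library, and oligodendrocyte lineage markers to between 208 and 312. The part of glia and progenitors in the 3 h values of the 10 genes was not tested.

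Genes with profiles most like those of Srf and Cnn1 were ranked by Pearson r over the 6 libraries, among the 12147 genes whose mean reached 1 cRPKM, as a description. For Srf these were Csrnp1 (r = 0.996), Nr4a2 (0.994), Sertad3 (0.993), Fbxo33 (0.992) and Supt5 (0.988). Nr4a2 had 11.5 and 11.4 cRPKM in untreated neurons, 29.9 and 29.0 at 0.5 h and 142 and 93.8 at 3 h, the same order of groups as Srf with replicate 1 higher at 3 h. For Cnn1 they included Fam8a1, Cs, Jdp2 and Ammecr1l, with r between 0.997 and 0.999. Pearson r takes no account of the size of a change, and these genes changed far less than Cnn1. Fam8a1 had 27.6 and 28.1 cRPKM untreated and 30.5 and 35.9 at 3 h, and Cs had 195 and 200, then 207 and 239. Jdp2 had 9.54 and 9.57 cRPKM in untreated neurons, 9.84 and 9.16 at 0.5 h and 14.4 and 20.6 at 3 h.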

How the data were processed

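RNA was sequenced from 6 libraries in 3 groups. The submitters' processing notes name Bowtie and the mouse build mm9; software versions, the annotation and how multiply matching reads were counted remain not given in the sources used here. The deposited tables give a read count per gene, left by the authors without normalization, and an RPKM value named cRPKM as deposited and not defined further; over 7690 genes above 2000 counts in every library its ratio to the count followed 1 factor per library within 0.132%. Total counts ran from 98882007 to 141865913 per library, so counting error is small except for genes of low count, such as Acta2, Tagln and Cnn1 before 3 h. Identifiers were matched to symbols in GENCODE M21 (94.9% of genes). It and RefSeq use a later build than the deposited values, which carry no positions.

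Counts were tested with edgeR 4.0.16 (R 4.3.3): counts were scaled by TMM, genes were kept by filterByExpr (minimum count 10), and a quasi-likelihood F test used a single model of the 6 libraries, with no term but group (15895 genes, 3 residual degrees of freedom). Fold changes are KCl over untreated, or 3 h over 0.5 h. The steps were tested on simulated data first. Alternatives were DESeq2 1.42.0, library totals, no filter, limma 3.58.1 on log2(cRPKM + 1) and log2(cRPKM + 0.1), a replicate block, and each library left out. Replicate differences correlated across genes between groups (r = 0.77, 0.56 and 0.59), so the numbers were read as a pairing, which rests on the data, since no label states it; the blocked value is given where it changes a call that is reported. The members, lists and motifs were chosen with earlier results of these data known. Of each list, up to 4 genes with the smallest adjusted p at 3 h are named; further genes named where a list's calls are given in full, Egr1, Ier2, further markers of other cell types, Acta1 and the overlapping neighbours were chosen after their values were seen. For Srf and Cnn1 the 5 genes with the highest Pearson r were taken. Protein sequences were not used here, and a few results are not reported here.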

Additional observations from a re-analysis of the deposited data

Results flagged for a closer look

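For 4 of the 10 genes the KCl effect differed between the times by edgeR's test of 3 h against 0.5 h, which is what singled them out. Of all genes, 6.39% were called higher and 4.87% lower in that test. The log2 effect at 3 h minus that at 0.5 h was 6.30 for Cnn1, 1.37 for Ccn2, 1.21 for Vcl and 0.63 for Srf. All 4 were positive, in 2 of 2 libraries at 3 h, and all 4 tests share the same 0.5 h libraries. Cnn1 was chosen for its 3 h values, which this comparison also uses, so its difference is a description; it was 4.41 without 3 h replicate 2 and 7.09 without 3 h replicate 1.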

How the results depend on the processing

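With 2 libraries a group, the number of calls depended on the settings. Among all genes 6 were higher and 0 lower at 0.5 h; DESeq2 called 35 and 2, and 13 were higher without a filter, 10 with limma on log2(cRPKM + 0.1) and 13 with the replicate block, against 0 to 6 with a library left out. At 3 h the counts were 1384 higher and 1088 lower, 2276 and 1857 in DESeq2, and 2963 and 2955 with the replicate block, and they ran from 34 to 1924 and from 4 to 1815 with a library left out. Between the KCl times they were 1015 and 774, 1942 and 1606 in DESeq2, 2477 and 2484 with the replicate block, and 0 to 1527 and 0 to 1388 with a library left out. Of the 10 genes, limma on log2(cRPKM + 1), which understates changes of low genes, called 0 at 0.5 h, 3 at 3 h and 1 between the times; between the times library totals called 2 and limma on log2(cRPKM + 0.1) called 2. With a library left out, 0 to 1, 1 to 6 and 0 to 4 were called, and none was called lower in any setting. The replicate block added Flna at 3 h and Tagln between the times and took away no member's call.

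Reversed signs were confined to the small changes of Ccn2, Acta2, Vcl, Actb, Actg1 and Ccn1 named here, and the cause was not tested. With single libraries left out, the log2 change at 0.5 h ran from -0.12 to 0.26 for Ccn2, from -4.86 to 2.61 for Acta2, from -0.27 to 0.25 for Vcl, from -0.067 to 0.11 for Actb and from -0.071 to 0.073 for Actg1. Acta2 ran from -3.32 to 3.16 at 3 h and from -3.21 to 5.31 between the KCl times, and Ccn1 from -0.28 to 0.28 between the times. At 0.5 h Vcl was 0.0059 with library totals, 0.0063 with limma on log2(cRPKM + 1) and 0.0070 with log2(cRPKM + 0.1), and Actg1 was -0.0010 without a filter. Between the KCl times Ccn1 was -0.043 with library totals, and -0.072 and -0.074 with limma at the pseudocounts 1 and 0.1. Scaling by library totals moved the median of all genes between the KCl times to -0.10, against -0.03.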

Other observations

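Relatives of the 10 genes that were not in the set were read in the same way, as a list chosen with earlier results known. At 3 h 4 of 10 tested relatives (of 11) rose and 0 fell by edgeR's adjusted p, where 8.71% of all genes were called higher and 6.84% lower. At 0.5 h 0 were called by edgeR or DESeq2, where 0 had an unadjusted p under 0.05; the 3 h count was 0 without either untreated library and 6 with the replicate block, where 18.6% of all genes were called higher. Cnn3, the calponin of non-muscle and brain cells, had 182 and 272 cRPKM at 3 h, against 104 and 101 in untreated neurons (log2 change 1.19 ± 0.17). Its level at 3 h was thus far above that of Cnn1 per length. Ctnna1, which encodes the vinculin relative alpha-catenin of cadherin junctions, had 40.8 and 62.3 cRPKM, against 25.5 and 26.7 (1.03 ± 0.19). Tagln2 is described above among the cytoskeletal targets.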
